A study of Callithrix jacchus with 4 samples.

Results

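RNA-sensing helicases and the zinc-finger antiviral protein were followed across the 7 annotated cell types of marmoset primary visual cortex (V1), in 3 animals with ischemic injury and in uninjured controls. The 4 genes were taken by name, as DDX58, DDX60, DHX58 and ZC3HAV1 among the 16383 genes listed in both tables of counts. Their UMIs (unique molecular identifiers, each marking 1 captured transcript) were summed per library and cell type, so that every value below belongs to 1 gene, 1 library and 1 annotated cell type. All 4 genes were detected in both cohorts in every cell type, and all 28 combinations of gene and cell type entered the tests.

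DDX58, also named RIGI, encodes RIG-I, a cytosolic helicase that binds uncapped, base-paired RNA and signals through the mitochondrial adaptor MAVS to switch on interferon genes. DHX58 encodes LGP2, a relative of RIG-I that lacks its signalling domains and tunes both RIG-I and the related sensor MDA5 (IFIH1). DDX60 encodes a larger helicase of the DExD/H-box family (named after a shared motif) with antiviral activity. ZC3HAV1 encodes ZAP, which is no helicase: it binds CpG-rich RNA through zinc fingers and recruits RNA decay factors. These genes are known to be induced by interferon in many cell types, and glia and neurons of the brain share the pathway.

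The injured cohort comprised adult common marmosets (Callithrix jacchus), each with intracortical injections of the vasoconstrictor peptide endothelin-1 (ET-1) beside the vessel that supplies opercular V1 of the left hemisphere, and each gave 1 library 7 days later. Controls were adult marmosets without injury, and nuclei of 3 animals were pooled in 1 library, which leaves the variation among uninjured animals unknown. Grey matter of opercular V1 was sampled in both cohorts, and in the injured animals the piece held infarct core and penumbra. Nuclei isolation protocol, sequencing facility, instrument and doublet handling differed between cohorts and did not vary within them, so these and the injury cannot be told apart in any comparison with the control library.

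There were 7500, 12527 and 9510 nuclei in the tables for injured replicates 1, 2 and 3, and 8610 for the pooled controls, with totals from 22832703 UMIs (control) to 48722394 UMIs (injured replicate 2). Median depth was 4504.5, 3531 and 4229.5 UMIs per injured nucleus and 2117 per control nucleus. Annotated cell types are given by the names in the deposited tables: astrocytes (Astro), endothelial cells (Endo), excitatory and inhibitory neurons (ExN, InN), Microglia, oligodendrocyte precursor cells (OPC) and oligodendrocytes (Oligo). Marker genes were highest in their own cell type for 32 of 33 in the injured cohort and 31 of 32 in the control cohort. The smallest control groups were Microglia (129 nuclei, 124463 UMIs), OPC (171 nuclei) and Endo (181 nuclei), so control values rest on few UMIs there. Of the control nuclei 7418 had at most 2500 genes, as the filter stated for this cohort would require, and all 8610 were used. Between 15 and 27 cell barcodes were shared by each pair of libraries.

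All 4 genes had higher levels after injury in nearly every cell type. CPM (UMIs of a gene per 1000000 UMIs of the same library and cell type) was above the control library in all 3 injured animals for 27 of the 28 combinations of gene and cell type, the exception being ZC3HAV1 in Endo. Of the genes tested, 38.5% had all 3 injured animals above control. With the quasi-likelihood test of edgeR, fitted over all tested genes of a cell type, 3 of 28 combinations were called (Benjamini-Hochberg adjusted p below 0.01, a change of more than 0.25 on the natural-log scale in either direction, and detection in 10% or more of the nuclei of 1 cohort), against 1.61% of all tests called higher. The 3 called were DDX58, DDX60 and DHX58 in InN. At an adjusted p limit of 0.05, 12 of 28 passed, against 4.72% of all tests, and 26 of 28 had an unadjusted p below 0.05, against 17% of all tests with higher values. By cell type the share of genes called higher was 1.12% in Astro, 4.19% in Endo, 2.6% in ExN, 2.2% in InN, 0% in Microglia, 0.061% in OPC and 0.619% in Oligo. The median of the 28 log2 fold changes was 3.27. Medians over all tested genes lay between 0.0027 and 0.42, and exceeded 0.1 in Endo (0.26), Microglia (0.42) and OPC (0.17), a shift to set beside the fold changes there. DDX58, DDX60 and DHX58 were also among the leading astrocyte genes of the study itself, so the direction of these changes is no independent evidence.

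**Figure D1:**
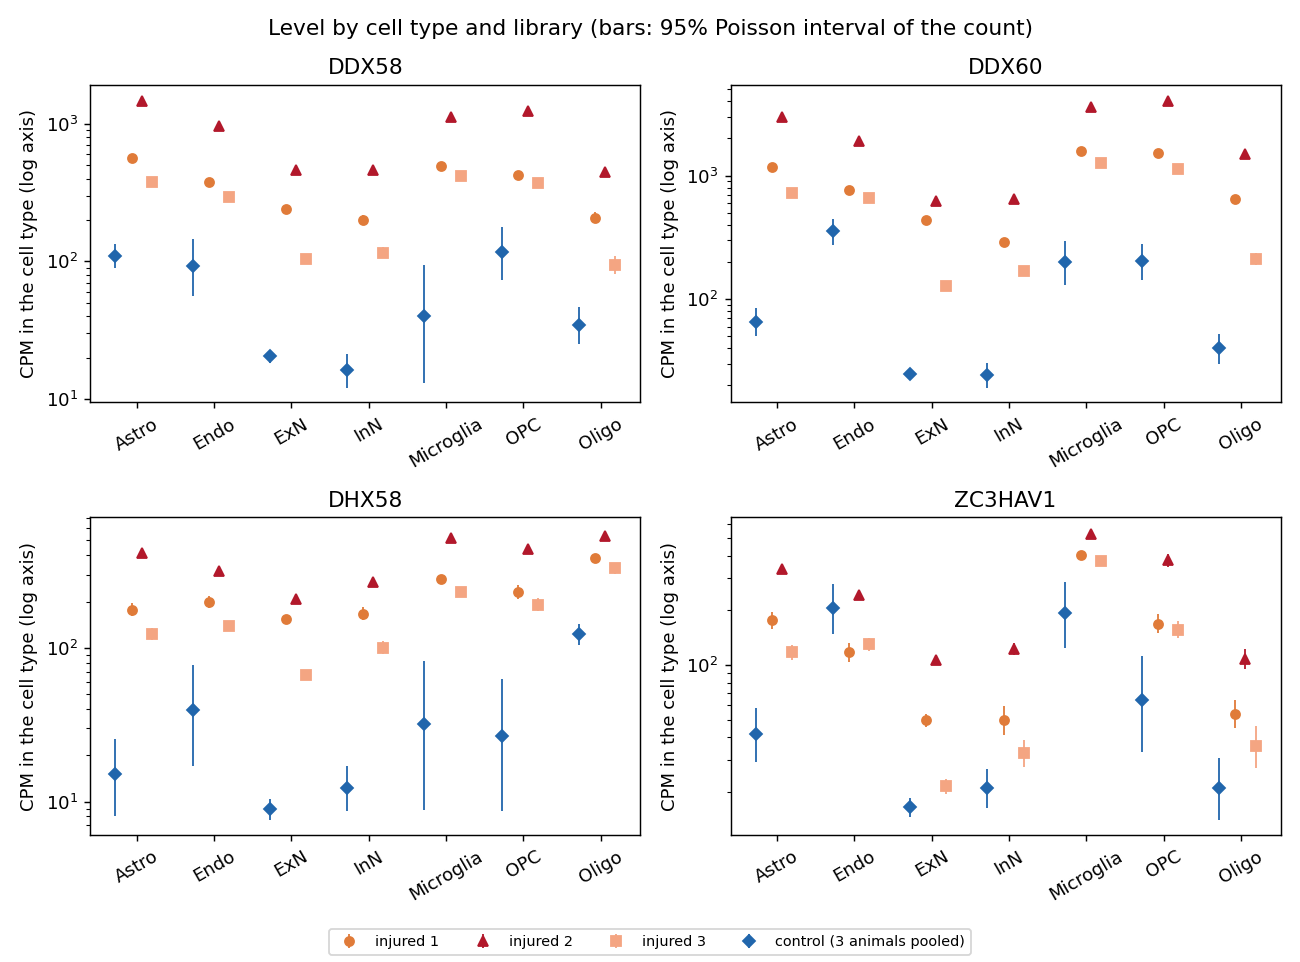
Level of each gene (CPM, log axis) by cell type, with 1 point for each of the 3 injured animals and 1 for the pooled control library, and bars for the 95% Poisson interval of the count. Injured replicate 2 (triangles) is the highest point of the injured animals in all 28 columns, and control (diamonds) lies below all 3 injured animals in 27 of 28.

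DDX58, the RIG-I sensor, reached its highest injured mean in astrocytes. There it stood at 567, 1465 and 379.7 CPM in injured replicates 1, 2 and 3 and at 109.8 CPM (95 UMIs) in the control library. All 3 injured animals were above control, and injured replicate 2 was 3.86 times as high as injured replicate 3. The fitted log2 fold change was 2.98 ± 0.78 (SE), adjusted p = 0.0479, which did not pass the limit of 0.01. Injured Microglia held 497, 1127 and 421 CPM, against 40.2 CPM from only 5 UMIs in control. OPC of the injured animals held 422, 1243 and 375 CPM, against 118 CPM (22 UMIs) in control. In both types all 3 injured animals were above control, as for 6660 of 13470 genes tested in Microglia and 4754 of 11476 in OPC. The tests gave 4.34 ± 1.11 (SE), adjusted p = 0.103, in Microglia and 2.66 ± 0.86 (SE), adjusted p = 0.157, in OPC.

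Neurons had low DDX58 levels in control. InN gave 201, 465 and 116 CPM in the injured animals and 16.2 CPM (50 UMIs) in control, a rise that was called (log2 fold change 4.12 ± 0.81 (SE), adjusted p = 0.00959). The corresponding ExN values were 240.1, 465 and 104 CPM and 20.4 CPM (348 UMIs), with a log2 fold change of 3.85 ± 0.90 (SE), adjusted p = 0.026. Endo held 376, 961 and 293 CPM after injury and 93.1 CPM (19 UMIs) in control (2.69 ± 0.83 (SE), adjusted p = 0.0525). That fold change was 1.95 at 1000 UMIs per nucleus and 1.93 without injured replicate 2. Oligo had the lowest injured mean, with 209, 445 and 94.5 CPM against 34.4 CPM (44 UMIs) (2.95 ± 0.87 (SE), adjusted p = 0.0739). Injured replicate 3 was the lowest animal in every cell type and still exceeded control.

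Markers of microglia, and in 5 of 7 cell types those of blood monocytes and neutrophils, also stood higher in the injured libraries, in glia as in neurons, when summed over the genes listed for both cohorts. Microglia markers (4 of 5 genes) were, as a sum, above control in all 3 injured animals in every cell type. They summed to 130 to 209 CPM in injured and 62.9 CPM in control InN, to 129 to 219.6 and 61.5 CPM in ExN, to 180.3 to 266 and 90.2 CPM in Astro, to 199 to 319.6 and 128 CPM in OPC and to 232 to 308 and 75.2 CPM in Oligo. These genes did not move alike: with every nucleus drawn down to 1000 UMIs, CD74, a chaperone of MHC class II that interferon is also known to induce, had a UMI in 8.21 to 15.4% of injured and 0.388% of control ExN, whereas P2RY12, a microglial receptor, had one in 1.07 to 1.26% and 1.88%. By this share CD74 was higher and GPR34 lower after injury in every cell type. GPR34 had a UMI in 0.335 to 0.503% of injured and 1.10% of control Astro, and in 0.435 to 0.662% and 1.41% of InN. P2RY12 and DOCK8 were higher in some cell types and lower in others. Blood monocyte and neutrophil markers (5 of 9 genes) summed to 20.7 to 48.0 CPM in injured and 9.73 CPM in control InN, to 17.0 to 39.3 and 8.13 CPM in ExN, to 95.3 to 139.8 and 15.0 CPM in Astro and to 41.6 to 78.2 and 6.26 CPM in Oligo, whereas in Endo and OPC the injured range spanned the control value. Endothelial markers summed to 285 to 418 and 113 CPM in Astro and to 75.5 to 118 and 39.1 CPM in Oligo. Excitatory neuron markers went the other way, at 977 to 1072 and 2093 CPM in Astro and 747 to 1026 and 1736 CPM in Oligo. As a sum the astrocyte markers were lower in injured (7652 to 9194 CPM) than in control Astro (14713 CPM). At 1000 UMIs SLC1A2 had a UMI in 70.6 to 81.4% of injured and 99.2% of control Astro. ALDH1L1 was also lower (31.1 to 40.4 and 44.2%). GFAP (29.8 to 36.7 and 9.67%), AQP4 (29.9 to 37.6 and 6.91%) and SLC1A3 (79.6 to 88.4 and 69.6%) were higher. NDRG2 (25.1 to 29.1 and 26.0%) spanned its control value. In InN the inhibitory neuron markers summed to 1344 to 1865 CPM in injured and 1149 CPM in control nuclei. By share of nuclei at 1000 UMIs, SST (4.73 to 6.23 and 1.63%) was among those higher. LHX6 (5.36 to 8.42 and 8.69%) was lower, though its highest injured share nearly reached control. These marker shares are given without intervals. The part of these shifts in the values of the 4 genes was not tested.

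DHX58, which encodes the regulator LGP2, was highest in Oligo both with and without injury. In control its highest level was in Oligo, at 123 CPM (157 UMIs) in 12.3% of nuclei, against 8.89 CPM in ExN and 15.0 CPM in astrocytes. The other 6 control types lay between 8.89 and 39.2 CPM, and in Microglia, OPC and Endo these values came from 4, 5 and 8 UMIs. Oligo also had the highest injured level in each of the 3 animals, at 383, 537 and 331 CPM. The animals differed least there for this gene, with the highest 1.63 times the lowest. Its fold change in Oligo was the smallest of the 7 for this gene (log2 1.86 ± 0.29 (SE), adjusted p = 0.015) and was not called.

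InN showed the called rise of DHX58, from 12.3 CPM (38 UMIs) to 167, 267 and 100.3 CPM, with a log2 fold change of 3.96 ± 0.59 (SE), adjusted p = 0.00274. ExN followed from 8.89 CPM (152 UMIs) to 154, 209 and 66.3 CPM (4.12 ± 0.73 (SE), adjusted p = 0.0108), just outside the limit of 0.01. Astrocytes held 178, 412 and 124 CPM against 15.0 CPM (13 UMIs) (4.09 ± 0.87 (SE), adjusted p = 0.0264). For Endo the injured values were 199.8, 319 and 139 CPM (2.62 ± 0.71 (SE), adjusted p = 0.034). Microglia held 282, 521 and 231 CPM (3.68 ± 0.97 (SE), adjusted p = 0.11) and OPC 232, 443 and 191 CPM (3.56 ± 0.80 (SE), adjusted p = 0.0782). All injured animals were above control in these types, and none but InN passed the limit of 0.01 with edgeR, whereas with DESeq2 DHX58 was called in all 7 cell types.

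DDX60 showed its largest fitted change in astrocytes and its smallest in Endo. Astrocytes of injured replicates 1, 2 and 3 held 1162, 2954 and 717 CPM, against 65.9 CPM (57 UMIs) in control (log2 fold change 4.72 ± 0.90 (SE), adjusted p = 0.0177). InN rose from 24.3 CPM (75 UMIs) to 289, 647 and 168 CPM, which was called (4.03 ± 0.76 (SE), adjusted p = 0.00803). ExN went from 24.6 CPM (420 UMIs) to 435, 628 and 127 CPM without being called (4.13 ± 0.95 (SE), adjusted p = 0.0255). In these 3 types every injured animal exceeded control, and injured replicate 3 was the lowest animal in each. OPC and Microglia had the highest injured levels of DDX60. OPC held 1526, 4032 and 1125 CPM against 203 CPM (38 UMIs) (3.59 ± 0.83 (SE), adjusted p = 0.0845). Microglia held 1589, 3573 and 1252 CPM against 201 CPM (25 UMIs) (3.67 ± 0.88 (SE), adjusted p = 0.0946). The spread between animals was widest in Oligo, at 644, 1496 and 211 CPM, where the highest was 7.09 times the lowest, against 39.9 CPM (51 UMIs) in control (4.38 ± 1.15 (SE), adjusted p = 0.0552).

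Endo had the highest control level of DDX60, at 353 CPM (72 UMIs) in 29.3% of nuclei. After injury Endo held 758, 1909 and 653 CPM, all above control (1.79 ± 0.65 (SE), adjusted p = 0.0873). Endothelial markers (FLT1, IGFBP7 and SLC2A1) summed to 3404 to 4096 CPM in injured Endo and to 848 CPM in control Endo, and pericyte and fibroblast markers (6 of 7 genes, those listed for both cohorts) to 1238 to 2445 and 1151 CPM. Astrocyte markers summed to 356 to 529 CPM in injured and 1171 CPM in control Endo, and microglia markers (4 genes) to 402 to 742 and 206 CPM. Genes within these lists went both ways by share of nuclei at 1000 UMIs (85 control Endo nuclei). SLC1A3 (6.58 to 9.90 and 44.7%) and ALDH1L1 were lower after injury, whereas SLC1A2 (6.14 to 8.75 and 2.35%), GFAP, AQP4 and NDRG2 were higher. CD74 (23.2 to 42.7 and 0%) was higher, whereas P2RY12, DOCK8 (5.46 to 6.66 and 12.9%) and GPR34 were lower. Excitatory neuron markers summed to 1995 to 2600.4 and 1210.2 CPM. Inhibitory neuron markers summed to 67.0 to 80.9 and 9.80 CPM, and T cell and NK cell markers (7 genes) to 61.8 to 71.9 and 19.6 CPM. The nuclei labelled Endo thus differed between cohorts in their own markers and in those of other cells, and the part of this in the values for Endo was not tested.

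ZC3HAV1, which encodes the RNA-binding protein ZAP, had a median log2 fold change of 1.84 over the 7 cell types, against 2.98 for DDX58, 4.03 for DDX60 and 3.68 for DHX58, a difference that was not tested. It was called in 0 of 7 cell types by edgeR and by DESeq2, with an unadjusted p below 0.05 in 5 of 7 by edgeR. Its highest injured levels were in Microglia, at 404, 523 and 371 CPM, against 193 CPM (24 UMIs) in control. The injured animals differed least there, with the highest 1.41 times the lowest, and the log2 fold change was 1.42 ± 0.34 (SE), adjusted p = 0.0933. At 1000 UMIs per nucleus this fold change was 3.57, from only 2 control UMIs (pooled ratio 8.54, 95% counting interval 2.36 to 70.6). Blood monocyte and neutrophil markers, over the 5 of 9 genes listed for both cohorts, summed to 626 to 894 CPM in injured and 177 CPM in control Microglia. Endothelial markers went the other way as a sum, at 142 to 172 and 570 CPM. Of these, FLT1 had a UMI at 1000 UMIs in 8.22 to 9.17% of injured and 21.6% of control Microglia. IGFBP7 (2.58 to 4.20 and 0%) and SLC2A1 (2.02 to 2.49 and 0%) were higher after injury. By share of nuclei at 1000 UMIs, GPR34 (1.78 to 3.67 and 27.0%) and P2RY12 (8.13 to 12.8 and 18.9%) were lower after injury. CD74 (54.4 to 62.4 and 0%) was higher, and DOCK8 (60.7 to 65.2 and 59.5%) lay close to its control value. These control shares rest on 37 nuclei and are given without intervals. The differences of P2RY12 and DOCK8 are thus not read as shifts. The part of these shifts in the Microglia values was not tested. Astrocytes gave the largest ZC3HAV1 change, at 176, 336 and 117 CPM against 41.6 CPM (36 UMIs) (2.44 ± 0.63 (SE), adjusted p = 0.047). OPC held 169, 376 and 157 CPM against 64.2 CPM (12 UMIs) (1.99 ± 0.73 (SE), adjusted p = 0.195). Neither passed the limit of 0.01. All 3 injured animals were above control in both, as for 4482 of 12445 genes tested in Astro and 4754 of 11476 in OPC.

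Neurons and Oligo had low levels of ZC3HAV1. ExN held 49.6, 106 and 21.4 CPM against 16.5 CPM (282 UMIs) (1.97 ± 0.85 (SE), adjusted p = 0.134). In InN the values were 49.6, 123 and 32.7 CPM and 21.1 CPM (65 UMIs) (1.84 ± 0.68 (SE), adjusted p = 0.0863). Oligo held 54.0, 108 and 35.7 CPM against 21.1 CPM (27 UMIs) (1.75 ± 0.65 (SE), adjusted p = 0.121). Injured replicate 3 was less than 2 times control in each of these 3 types. Endo was the 1 cell type with no higher level: 117, 242 and 129.7 CPM in the injured animals lay on both sides of 206 CPM (42 UMIs) in control, with a log2 fold change of -0.19 ± 0.48 (SE), adjusted p = 0.809.

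**Figure D2:**
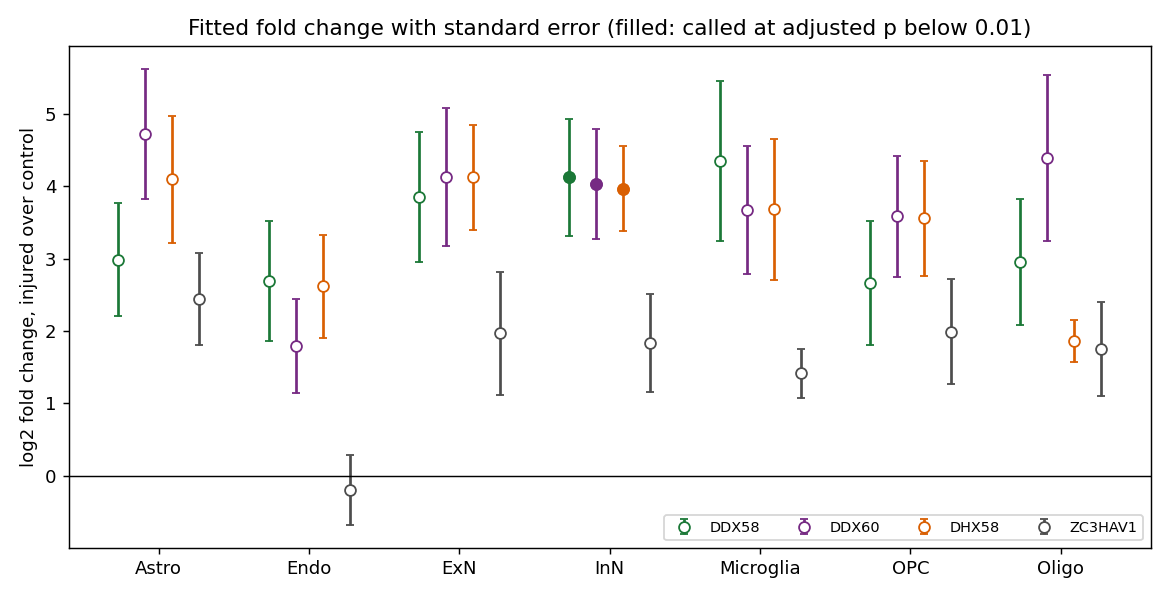
Fitted log2 fold change, injured over control, of each gene in each cell type, with bars for 1 standard error and filled points where the test was called. The 3 filled points are DDX58, DDX60 and DHX58 in InN at 3.96 to 4.12, and ZC3HAV1 in Endo is the 1 point below 0.

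The 3 injured animals differed in a regular way. Injured replicate 2 had the highest CPM of the 3 in all 28 combinations of gene and cell type, against 32.4% of all tested genes and types, and injured replicate 3 had the lowest in 27 of 28. The 1 exception was ZC3HAV1 in Endo, where injured replicate 1 was lowest. The number of calls depended on which animals were used. Without injured replicate 2, 21 of 28 combinations were called, against 4.61% of all tests called higher, and without injured replicate 3 also 21, against 2.77%. Without injured replicate 1 only DHX58 in InN was called, against 0.747% of all tests. Directions were kept in all 28 in each case. Without injured replicate 2, 16 of the 28 fold changes were smaller by more than 1.5 times. These were DDX58 in all 7 cell types (log2 fold changes of 1.87 to 3.75), DDX60 in all but ExN (1.08 to 3.93), DHX58 in Astro (3.41), and ZC3HAV1 in ExN (1.19) and InN (1.03). The called DDX58 and DDX60 in InN were then at 3.36 and 3.31. With DESeq2 the calls were DHX58 in all 7 cell types, DDX58 in ExN, InN and Microglia, and DDX60 in Astro, ExN and InN. The number called also moved with the processing: 13 with DESeq2 (2.4% of all tests called higher), 7 at 1000 UMIs per nucleus (0.754%), 6 without the filter on low counts (1.74%) and 5 in nuclei with at most 2500 genes (1.46%).

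Whether the injury effect differed between cell types was tested for each cell type against the mean of the other 6, with the library as a block. Of the 28 differences 1 was called at an adjusted p below 0.01, DDX60 in Endo, where the effect was lower than in the other types by a log2 difference of -2.22 ± 0.45 (SE), adjusted p = 0.00307. Effects below the other types were called for 2.04% of genes in Endo. The other 27 were not called. Next in size were ZC3HAV1 in Endo (-2.03 ± 0.52 (SE), adjusted p = 0.0177) and DHX58 in Oligo (-1.74 ± 0.34 (SE), adjusted p = 0.0157). At a limit of 0.05 these 3 would pass, against 4.28% of Endo and 1.01% of Oligo genes. In each of these 3 the control level was the highest of that gene among the cell types, as given above. Over all cell types and genes 1.05% of such differences were called in either direction. In InN, where the helicase genes were called, the differences from the other types were 0.85 ± 0.35 (SE), adjusted p = 0.255 for DDX58, 0.32 ± 0.43 (SE), adjusted p = 0.79 for DDX60 and 0.63 ± 0.43 (SE), adjusted p = 0.541 for DHX58, so a larger effect in InN than elsewhere was not shown. The largest positive differences were those of DDX58 in Microglia (1.26 ± 0.66 (SE), adjusted p = 0.388) and of DDX60 in Astro (1.06 ± 0.45 (SE), adjusted p = 0.248). Since 1 control library carried all control sums, its error was assumed to be that of the injured libraries. Without injured replicate 2, DDX60 in Endo was no longer called (log2 difference -2.08, adjusted p = 0.0265), and without injured replicate 3 ZC3HAV1 in Endo was called as well (adjusted p = 0.00214).

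**Figure D3:**
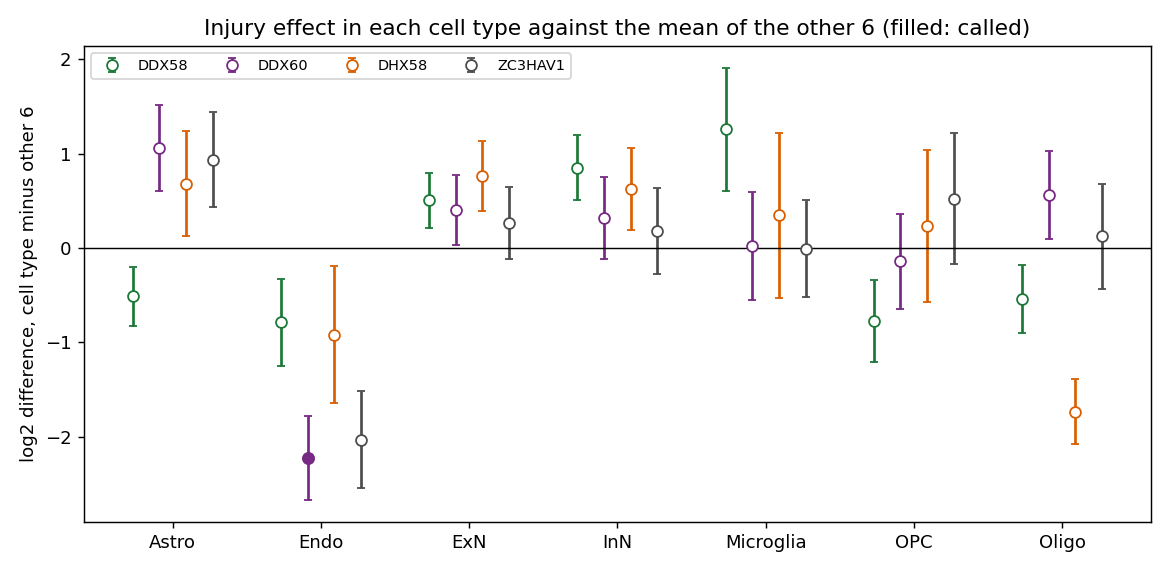
Log2 difference between the injury effect in 1 cell type and the mean effect of the other 6, for each gene, with bars for 1 standard error. The filled point, DDX60 in Endo at -2.22, is the called difference, and ZC3HAV1 in Endo (-2.03) and DHX58 in Oligo (-1.74) lie nearest to it.

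Within the injured animals, each gene had its own order of cell types. By mean level over the 3 animals (± SD, n = 3), DDX58 was highest in Astro (804 ± 579.8 CPM), followed by Microglia, OPC, Endo, ExN, InN and Oligo (249.5 ± 179 CPM). DDX60 had its highest mean in OPC (2228 ± 1575 CPM), followed by Microglia, Astro, Endo, Oligo, ExN and InN (368 ± 249 CPM). The order of DHX58 was Oligo (417 ± 107 CPM), Microglia, OPC, Astro, Endo, InN and ExN (143 ± 71.8 CPM). That of ZC3HAV1 was Microglia (433 ± 79.9 CPM), OPC, Astro, Endo, InN, Oligo and ExN (59.0 ± 43.0 CPM). Because injured replicate 2 was the highest animal throughout, neighbours in each order were compared with the animal as a block. The pairs were set by the means of these same 3 animals, so the tests are no independent check of the order. It also differed in part between the animals. Of 24 neighbouring pairs, 4 differed at an adjusted p below 0.01, against 23.6% of all genes over the same cell type pairs.

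DDX58 was higher in Endo than in ExN (log2 difference 0.88 ± 0.15 (SE), adjusted p = 2.74e-05; 32.8% of 13659 genes were called higher in Endo). DDX60 was higher in Oligo than in ExN (0.90 ± 0.22 (SE), adjusted p = 0.0015; 23.9% of genes), a call lost without injured replicate 2 (0.70, adjusted p = 0.0484). ZC3HAV1 was higher in Microglia than in OPC (1.06 ± 0.22 (SE), adjusted p = 0.000239; 27% of genes), a call lost without injured replicate 1 (0.95, adjusted p = 0.0209). It was also higher in Endo than in InN (1.23 ± 0.23 (SE), adjusted p = 8.11e-05; 30.8% of genes). The remaining 20 pairs did not pass, among them all 6 of DHX58, whose top pair of Oligo and Microglia differed by 0.45 ± 0.17 (SE), adjusted p = 0.025. The top places of DDX58 (Astro, Microglia and OPC) and of DDX60 (OPC, Microglia and Astro) were thus not separated by these tests. For DDX60, OPC led in injured replicate 2 and Microglia in injured replicates 1 and 3, and with the animal as a block OPC minus Microglia was -0.05 ± 0.22 (SE), adjusted p = 0.849.

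Shares of nuclei with a UMI moved with the levels. Depth and the totals behind CPM were counted over the genes of each cohort's own table, 32323 for injured and 16383 for control. Because injured nuclei were deeper, every nucleus was drawn down to 1000 UMIs, leaving out those with fewer. This kept 27352 of 29537 injured and 7104 of 8610 control nuclei, and of the control 37 of 129 Microglia, 80 of 171 OPC and 85 of 181 Endo nuclei. DDX60 in injured Microglia was found in 68.6, 90.8 and 60.0% of thinned nuclei, against 32.4% in control (exact 95% interval 18.0 to 49.8%). At whole depth these were 88.3, 94.5 and 79.5% and 18.6%. In astrocytes DDX60 was found in 55.5, 82.6 and 34.7% of injured and 4.70% of control nuclei (86.3, 94.1 and 71.9% and 8.92% at whole depth). DDX58 in InN was found in 18.5, 33.3 and 9.13% against 1.52% (48.1, 72.5 and 34.8% and 4.65% at whole depth). DHX58 had a UMI in 0 of 37 thinned control Microglia, which allows a share with a UMI at this depth of up to 8.11% by the limit of 3 counts (9.49% by the exact 95% interval), and in 25.3, 40.6 and 18.7% of injured Microglia.

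At whole depth the injured mean share was above the upper bound of the control interval in 28 of 28 combinations, but so it was in 72.3% of all tests, with the injured nuclei deeper. It was above in 27 at 1000 UMIs, against 11.6% of all tests, and in 27 at 500 UMIs, against 11.2%. The exception after thinning was ZC3HAV1 in Endo, at 9.48, 17.9 and 10.5% of injured and 12.9% of control nuclei. At whole depth it stood at 23.9% of the pooled injured and 16.0% of control nuclei, where injured Endo nuclei had a median of 1813 UMIs and control Endo nuclei 922. No annotated cell type is known to lack these genes, so stray RNA was read from 4 oligodendrocyte markers (MBP, UGT8, ST18 and MOBP), which at 1000 UMIs had a UMI in 0.367 to 6.01% of injured and 0.408 to 7.51% of control ExN. Control shares of the 4 genes in ExN lay within that range and are not read as expression. Of the injured ExN shares, those of ZC3HAV1 in injured replicates 1 and 3 (4.53 and 2.17%) lay within it. Those of the other 3 genes were above it in every animal, the lowest being 6.34% (DHX58, injured replicate 3). The range comes from oligodendrocyte markers alone. Of the microglia markers listed for both cohorts, CD74 had a UMI in 8.21 to 15.4% of injured ExN. The others lay between 0.334 (GPR34) and 4.37% (DOCK8). A share above the range is thus not read as expression in ExN. No such range was set for the other cell types, so their shares may hold a stray part of unknown size. In injured InN MOBP had a UMI in 5.51 to 6.53% of nuclei, and ZC3HAV1 in 4.87, 11.2 and 3.62%. Intervals cover counting error only.

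**Figure D4:**
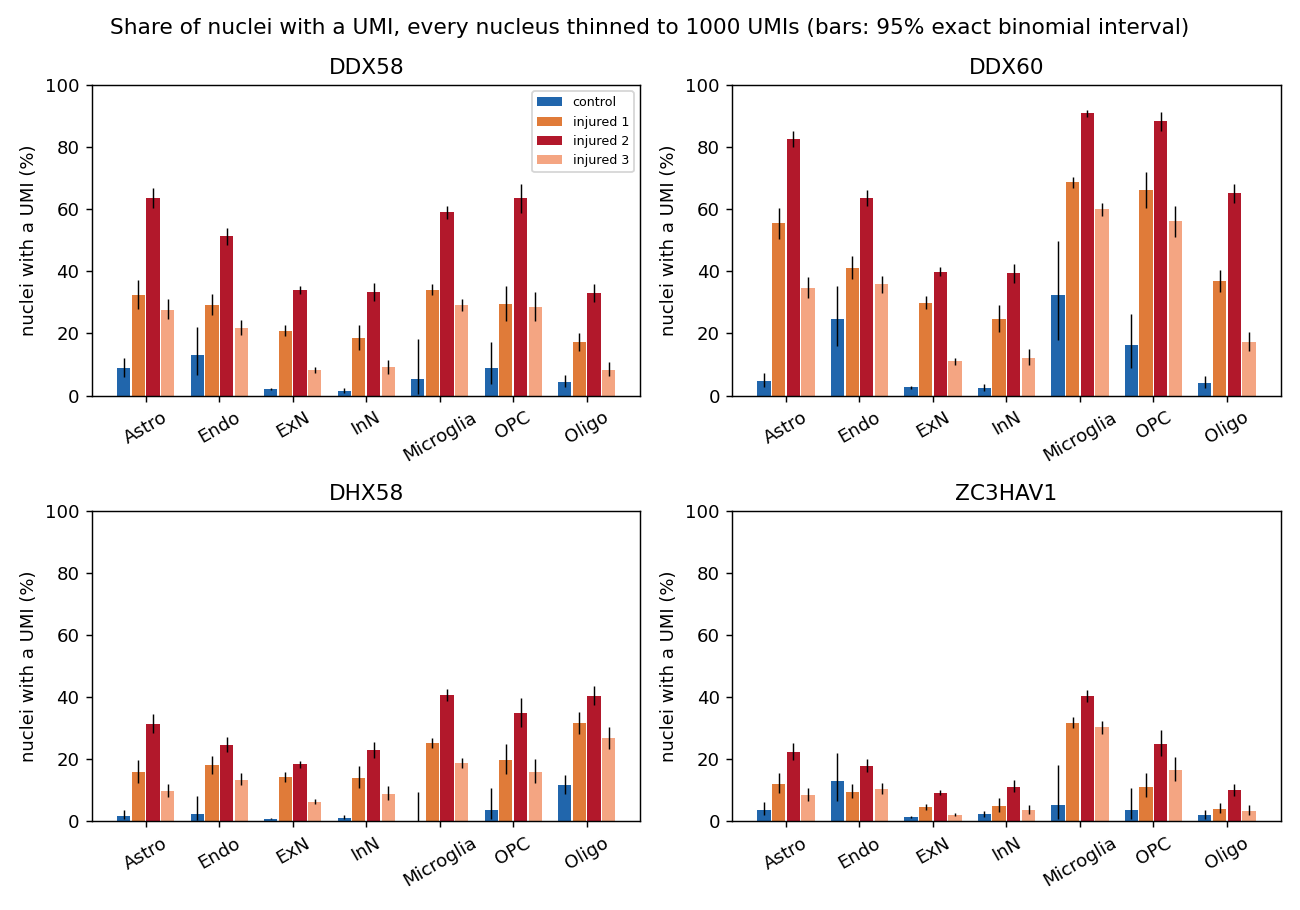
Share of nuclei with a UMI of each gene (%) after thinning every nucleus to 1000 UMIs, by cell type, for the control library and the 3 injured animals, with exact 95% binomial intervals. Injured bars are above the control bar in nearly every group, and those for ZC3HAV1 in Endo lie within the control interval of 6.64 to 22.0%.

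Counted together at 1000 UMIs, at least 1 of the 4 genes was found in 87.8, 97.2 and 78.6% of Microglia of injured replicates 1, 2 and 3, against 40.5% of the 37 control Microglia. OPC gave 77.4, 96.5 and 77.4% against 28.8%, and astrocytes 72.9, 93.6 and 58.0% against 17.4%. ExN gave the lowest shares in injured replicates 2 and 3, at 50.4, 64.3 and 23.5% against 6.83%. Nuclei with UMIs of 2 or more of the genes made up 51.4, 80.7 and 43.1% of injured Microglia and 16.3, 28.9 and 3.50% of injured ExN. In control these were 2.70% and 0.0776%, and the highest control share was 10.6% in Endo. Within an animal and cell type, nuclei with 1 gene more often had a UMI of a second than nuclei without it, in 105 of 126 combinations of animal, cell type and pair of genes. Such combinations share nuclei and genes and are given without a test, and no such count was made for other genes. With each pair read in both orders, the median share of nuclei with the second gene was 27.7% with the first and 21.5% without it. In ExN the share was higher in 18 of 18 combinations (14 at 500 UMIs; medians 19.6% and 11.5%), and in OPC in 12 of 18 (14 at 500 UMIs; 31.4% and 26.6%).

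**Figure D5:**
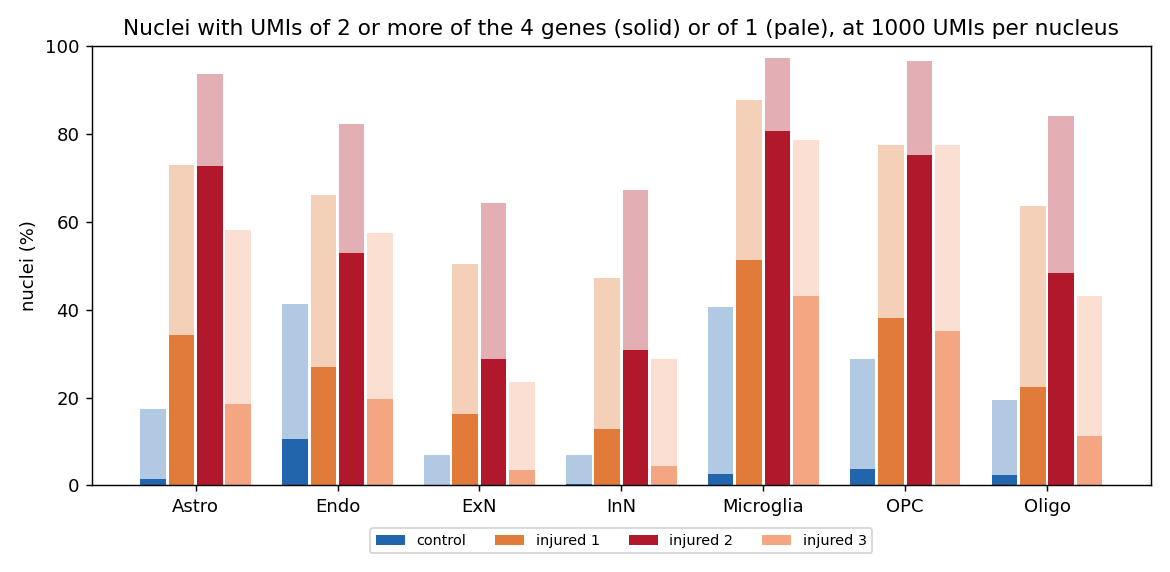
Share of nuclei (%) with UMIs of 2 or more of the 4 genes (solid) or of 1 (pale), at 1000 UMIs per nucleus, by cell type and library. In injured replicate 2, 72.8 to 80.7% of Astro, Microglia and OPC nuclei held 2 or more, against at most 10.6% in any control cell type.

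Around these genes, the other sensors of RNA and DNA were called higher in 2 of 81 tests over the 7 cell types (7 at an adjusted p limit of 0.05) and lower in 0. For this and the following lists, 1.61% of all tests were called higher at 0.01 and 4.72% at 0.05, and 0.748% were called lower at 0.01. Both calls were in InN. IFIH1, which encodes the sensor MDA5 of long paired RNA, stood at 48.8, 101 and 40.4 CPM in injured and 8.43 CPM (26 UMIs) in control InN (3.04 ± 0.60 (SE), adjusted p = 0.00975). EIF2AK2, which encodes the kinase PKR that halts translation on binding paired RNA, stood at 294, 436 and 240.4 CPM and 95.3 CPM (294 UMIs) (1.87 ± 0.32 (SE), adjusted p = 0.00512). Both genes were above control in all 3 injured animals in every cell type, with fitted log2 fold changes of 2.18 to 4.74 for IFIH1 and 0.95 to 1.92 for EIF2AK2, and injured replicate 2 was the highest animal for both throughout. IFIH1 rests on 2 to 5 control UMIs in Astro, Endo, Microglia and OPC. The list's median log2 fold change was 1.19 in Astro and 0.50 in ExN, against 0.05 and 0.0039 over all genes tested, and the 4 followed genes had 3.54 and 3.99.

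Genes that modify RIG-I itself, such as the ubiquitin ligases TRIM25 and RNF135, were called in 0 of 61 tests by edgeR and in 0 by DESeq2, with 11 at an unadjusted p below 0.05 in either direction, against 30.4% of all tests. Transcription factors and interferon signalling genes were called higher in 7 of 93 tests and lower in 1 (19 and 2 at 0.05). In astrocytes IRF1, a transcription factor of interferon responses, rose by a log2 fold change of 5.15 ± 0.73 (SE), adjusted p = 0.007, 6 control UMIs. JAK2, a kinase that binds cytokine receptors, was also called in astrocytes (2.94 ± 0.38 (SE), adjusted p = 0.00544), and IFNGR2, a chain of the interferon-gamma receptor, was the 1 gene that fell, in ExN (-0.96 ± 0.14 (SE), adjusted p = 0.00609). Adaptors and kinases between the sensors and these factors gave 1 call in 116 tests (8 higher and 2 lower at 0.05). It was NLRC5 in Oligo (4.98 ± 0.65 (SE), adjusted p = 0.00868), a gene known as an activator of MHC class I genes. JAK2, IFNGR2 and NLRC5 were named after their values were seen.

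ZAP partners and relatives of its PARP-like domain were called higher in 7 of 129 tests and lower in 0 (18 and 1 at 0.05). Those in astrocytes were PARP10 (log2 fold change 3.70 ± 0.51 (SE), adjusted p = 0.00661, 6 control UMIs) and PARP9 (2.87 ± 0.41 (SE), adjusted p = 0.00723, 35 control UMIs), both ADP-ribosyltransferases of the PARP family, of which PARP9 acts with DTX3L in interferon responses. All 7 calls were of PARP8, PARP9, PARP10 or PARP12, and none was of a known ZAP cofactor such as KHNYN. KHNYN, the nuclease partner of ZAP, had an adjusted p of 0.0102 in ExN at a log2 fold change of 1.56, and was also named after its values were seen.

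The other helicase genes were called at a rate near that of all genes. Of the other 40 DDX and DHX genes in both tables, tested 269 times over the 7 cell types, 5 tests were called higher and 1 lower (14 and 7 at 0.05). The higher calls made up 1.86% at 0.01 and 5.2% at 0.05, against 1.61% and 4.72% of all tests. In astrocytes 1 of 39 was called, DDX5, a nuclear splicing and transcription cofactor, at a log2 fold change of 1.97 ± 0.25 (SE), adjusted p = 0.00544, 101 control UMIs. DDX5 made up 4 of the 5 higher calls, in Astro, ExN, InN and Oligo, and DDX1 in InN the other (1.06 ± 0.21 (SE), adjusted p = 0.00917). The lower call was DDX17 in Endo (-1.20 ± 0.22 (SE), adjusted p = 0.00741). The median log2 fold change of the family was -0.04 in Astro, -0.20 in ExN and -0.09 in InN, where the medians over all genes tested were 0.05, 0.0039 and 0.0027. In Endo, Microglia, OPC and Oligo it was 0.07, 0.37, 0.20 and 0.04, against 0.26, 0.42, 0.17 and 0.02 over all genes tested. All 3 injured animals were above control in 102 of the 269 tests of these genes (37.9%), near the 38.5% of all tests. DDX1 and DDX17 were named after their values were seen.

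The genes whose levels over the 28 sums (4 libraries by 7 cell types) were most like each of the 4 were found by Pearson's r of log2(CPM + 1) among 10299 genes with a mean of at least 10 CPM. These correlations share libraries, depth and cell types and are a description. For DDX58 they were DDX60 (0.95), MX1 (0.94), HERC5 (0.93), ENSCJAG00000003364 (0.91) and PARP14 (0.91). For DDX60 they were PARP14 (0.97), ENSCJAG00000003364 (0.96), MX2 (0.96), DDX58 (0.95) and DTX3L (0.95). Among those most like DHX58 were HERC6 (0.92), PSMB9 (0.90), UBA7 (0.89) and NLRC5 (0.88). ZC3HAV1 was most like PARP15 (0.95), CASP4 (0.93), PML (0.92), ENSCJAG00000009988 (0.92) and TLR3 (0.91). DDX58 and DDX60 were thus each among the other's 5 nearest genes, whereas DHX58 ranked 56 for DDX58, and DHX58 and ZC3HAV1 were the least alike pair of the 4 (0.56).

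Interferon genes themselves could not be compared with control, because those with injured UMIs were not listed in the control table. IFNB1 had 19 UMIs in 11 of the 29537 injured nuclei. Injured replicate 2 held most, with 6 in Astro, 5 in Microglia, 3 in OPC and 1 in ExN. Injured replicate 1 held 2 in Astro and 2 in ExN, and injured replicate 3 had no IFNB1 UMI. IFNG, the type II interferon, had 683 UMIs, of which 583 lay in 100 nuclei labelled Microglia. Of these, 118, 435 and 30 UMIs came from injured replicates 1, 2 and 3. T cell and NK cell markers, over the 7 of 10 genes listed for both cohorts, summed to 253 to 296 CPM in injured Microglia and to 96.4 CPM in control Microglia, and their part in the IFNG count was not tested. IFNL1 and IFNK were listed at 0.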

How the data were processed

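UMIs were counted in nuclei of 4 libraries (10x Genomics 3' chemistry): 3 injured animals, numbered in the order of the sample records, and 1 pool of 3 uninjured animals. The authors aligned reads to calJac3 with Ensembl gene models and counted UMIs with Cell Ranger 3.1.0, filtered nuclei (Scrublet for injured nuclei, Seurat gene limits for controls) and deposited raw counts per gene and nucleus, with a cell type for each nucleus. Cell types were taken from that annotation. Here sums of counts over the nuclei of a cell type in 1 library were tested with edgeR 4.0.16 (R 4.3.3; TMM factors, filterByExpr, quasi-likelihood test, Benjamini-Hochberg over all genes of a cell type). Standard errors are the fold change divided by the square root of the test statistic. With 1 control library the spread came from the injured libraries and was assumed for the control. The difference of effects used a library block over 28 sums, and neighbouring cell types an animal block within injured libraries (24 pairs, 13659 genes). Shares carry exact Clopper-Pearson 95% intervals, and 3 UMIs was the limit that a count of 0 allows. DESeq2 1.42.0, other scalings, filters and depths and leaving out each animal were the alternatives. Each kind of test was run on simulated counts, for the comparison with control in Astro and Microglia only. The difference of effects was simulated in Endo, and the level in Microglia over OPC. The simulated libraries held no differences between animals, so the spread assumed for the control was not checked.

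The 4 genes and all gene lists were chosen with earlier results of these data known. Named genes were the 4 genes, IFIH1 and EIF2AK2, in each list the 2 called astrocyte genes of largest change with more than 3 UMIs in each cohort (for other DDX and DHX genes the 2 largest rises and falls), and the 5 genes most like each of the 4. Replicates are separate injured animals. No sequence was used here, and results of 1 gene that these rules would name are not reported here.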

Additional observations from a re-analysis of the deposited data

Results flagged for a closer look

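The injury effect on DDX60 differed in Endo from the mean of the other 6 cell types, by -2.22 on the log2 scale (SE 0.45, adjusted p = 0.00307, edgeR). What set it apart was that the effects in different cell types were compared in 1 test, and this test passed the limit of 0.01. The injured animals held 758, 1909 and 653 CPM in Endo against 353 CPM in control. Endothelial markers summed to 3404 to 4096 CPM in injured and 848 CPM in control Endo. The part of this in the difference was not tested. The fitted change in Endo was 1.79 on the log2 scale, and in the other cell types it lay between 3.59 (OPC) and 4.72 (Astro). The difference was not called without injured replicate 2 (-2.08, adjusted p = 0.0265) or without the library block (-2.30, adjusted p = 0.369).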

How the results depend on the processing

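No paired analysis was possible because the control is 1 pool of animals other than the injured ones, and replicate numbers in record order pair nothing. Of the 28 tests against control, 3 were called, and 6 without the low-count filter, 13 with DESeq2, 7 at 1000 UMIs per nucleus, 5 in nuclei with at most 2500 genes and 12 at an adjusted p limit of 0.05. Leaving out 1 animal gave 1 to 21. DDX58 (1 cell type called) gave 3 with DESeq2, 2 at 1000 UMIs, 3 at 0.05 and 0 to 6 without 1 animal. DDX60 (1) gave 2 without the filter, 3 with DESeq2, 2 at 1000 UMIs, 3 at 0.05 and 0 to 6. DHX58 (1) gave 3, 7, 3 and 5 under the same settings, 2 in nuclei with at most 2500 genes, and 1 to 7. ZC3HAV1 (0) gave 1 in nuclei with at most 2500 genes, 1 at 0.05 and 0 to 3. Without injured replicate 1, DDX58 and DDX60 in InN were lost (adjusted p = 0.0137 and 0.0124). Of 28 differences between cell types 1 was called, 2 without the filter, 3 at 0.05, 0 with no library block and 0 to 2 without 1 animal. Of 24 neighbouring pairs 4 were called, 7 at 0.05, 0 with no animal block and 3 to 6 without 1 animal, an alternative chosen after seeing the data, as was the count of nuclei with both genes at 500 UMIs (105 of 126 pairs again, 210 of 252 read in both orders). No direction of the 28 fold changes reversed. Without injured replicate 2, 16 of the 28 moved by more than 1.5 times, all down, by at most 0.87 on the log2 scale. At 1000 UMIs DDX58 in Endo (2.69) was 1.95, ZC3HAV1 in Microglia (1.42) 3.57, and DHX58 in Microglia had 0 control UMIs and is given no fold. Scaling by library size alone left 3 calls and lowered the share of called genes that were higher from 74.9 to 57.7% in Astro, 67.8 to 57.4% in Endo, 67.5 to 49.9% in ExN and 64.3 to 47.6% in InN. The causes were not tested. Control Microglia, OPC and Endo limit precision, with 4 to 5 control UMIs behind DDX58 and DHX58 in Microglia.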
